A study of Mus musculus with 49 samples.

Results

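Chaperones that fold new and damaged proteins were followed during culture with IL-2 in CD8+ T cells from the spleens of 2 mouse lines. The genes were taken by their symbols. They are the subunits of the cytosolic chaperonin CCT (Tcp1 and symbols that begin with Cct2 to Cct8), the heat shock protein (HSP) genes whose symbols begin with Hspa, Hspb, Hspd, Hspe or Hsph, and the DnaJ genes whose symbols begin with Dnaja, Dnajb or Dnajc. Of 23992 gene symbols in the files, 81 matched, and 62 of these had a mean of at least 1 RPKM (reads scaled by transcript length and by mapped reads) over the 47 libraries used, with the longest listed transcript standing for each gene. These 62 genes are the members. They comprise 8 CCT subunits, the 2 genes of the mitochondrial chaperonin (Hspd1 and Hspe1), 10 HSP70 genes (Hspa), the HSP110 gene Hsph1, the small HSP gene Hspb6, 37 DnaJ genes (4 Dnaja, 10 Dnajb and 23 Dnajc), and 3 genes that share only the letters of the symbol (Hspbp1, Hspbap1 and Hspb11). Hspbp1 encodes a nucleotide exchange factor of HSP70. The genes of HSP90 do not match these symbols and are given further on as partners.

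A chaperone binds unfolded stretches of a protein and keeps them from aggregating. HSP70 proteins do so in cycles of ATP hydrolysis, DnaJ proteins (also called HSP40) deliver clients and stimulate that hydrolysis, and exchange factors such as the HSP110 proteins release the nucleotide. CCT is a closed double ring of different subunits in which actin, tubulin and other cytosolic proteins fold, and HSP60 (Hspd1) with its lid HSP10 (Hspe1) does the same inside mitochondria. Hspa8 is the constitutive HSP70 of the cytosol, Hspa1a and Hspa1b are its stress-induced counterparts, Hspa5 (BiP) works in the endoplasmic reticulum (ER) and Hspa9 (mortalin) in mitochondria. Resting T cells are small and make little protein, and IL-2 makes CD8+ T cells grow and divide.

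The cells came from mice homozygous for a Stat5a or a Stat5b knockin (KI) allele and from wild-type (WT) littermates of each line. In each KI allele, made by CRISPR/Cas9 together with additional silent changes and backcrossed for 6 generations to C57BL/6J, the codon of the tyrosine that is phosphorylated upon activation was changed to one for phenylalanine, so the level of Stat5a or Stat5b RNA does not check a label. The mice of the study were of both sexes and 8 to 24 weeks old. CD8+ T cells were purified from spleen by negative selection and cultured with human recombinant IL-2 at 500 IU/ml, and RNA was taken before culture (0 hr) and after 4, 24 or 48 hr of it. The 2 lines, 2 genotypes and 4 times make 16 groups of 3 libraries, except that 1 of the 3 libraries of Stat5a KI cells at 4 hr was left out, as it held 1028503 reads on the transcripts used, 5.68% of its mapped reads. Whether the 3 libraries of a group came from different mice is not stated in the sources used here, so p-values measure only the spread between these libraries. In bulk RNA, fewer cells of a type and less RNA per cell cannot be told apart.

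The 47 libraries held 17369512 to 60202694 reads on the transcripts used (median 41412095). The 4 hr WT library of the Stat5a line with replicate number 2 stood apart: 44.9% of its mapped reads lay on these transcripts, against 68.7% to 84.4% in the other 46 libraries, and it was also the library with the fewest reads. Log2 changes that rest on it are given with and without it. The label CD8+ T cell was checked with 5 markers (Cd3d, Cd3e, Cd3g, Cd8a and Cd8b1), whose summed level was 585 to 1667 RPKM over all libraries. At 0 hr this sum was 932 to 1164 RPKM in WT and 837 to 881 RPKM in KI cells of the Stat5a line, and 1158 to 1298 and 954 to 1016 RPKM in the Stat5b line. At 48 hr it was higher in KI cells, at 1062 to 1184 and 1505 to 1661 RPKM in the Stat5a line. For the Stat5b line the values then were 1030 to 1062 and 1498 to 1667 RPKM. Cells of other types were measurable too. At 48 hr the 6 B cell markers, led by Cd79a, summed to 13.02 to 38.2 RPKM in WT and 96.8 to 116.05 RPKM in KI cells of the Stat5a line, and to 11.003 to 13.3 and 119.1 to 124.7 RPKM in the Stat5b line. The 9 measured macrophage markers of 10 listed, led by Mpeg1, summed to 7.89 to 15.2 and 37.96 to 92.4 RPKM in WT and KI cells of the Stat5a line and to 6.92 to 9.86 and 88.7 to 131.4 RPKM in those of the Stat5b line. For the 6 erythroid genes, led by Hbb-bs, the sums were 6.40 to 8.02 and 17.9 to 22.5 RPKM in the Stat5a line and 4.71 to 8.27 and 110.8 to 206 RPKM in the Stat5b line. The 3 CD4 T cell markers, led by Cd4, summed to 2.01 to 3.06 RPKM in WT and 9.19 to 9.21 RPKM in KI cells of the Stat5a line, and to 1.15 to 1.77 and 13.5 to 13.7 RPKM in the Stat5b line. The 3 NK cell markers, led by Klrb1c, summed to at most 17.7 RPKM in any library. No marker of these lists was listed at 0 in every library. The 7 genes of cycling cells, led by Pcna, moved the other way, with sums of 948 to 1032 RPKM in WT against 602 to 686 RPKM in KI cells of the Stat5a line, and 1047 to 1109 against 344 to 493 RPKM in the Stat5b line. The part of these other cells and of cycling cells in the results below was not tested.

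The mean over all libraries was at least 100 RPKM for 9 members, at least 10 RPKM for 38 and between 1 and 10 RPKM for 24, with a median of 15.7 RPKM. Hspa8 was the most abundant at 1043 RPKM, followed by Hspa5 (185 RPKM), Cct2 (163 RPKM), Cct5 (163 RPKM), Hspe1 (149.7 RPKM), Cct4 (123.6 RPKM), Hspd1 (118.7 RPKM), Tcp1 (103.7 RPKM), Dnajc15 (102.95 RPKM) and Cct8 (98.5 RPKM). Dnajc15 encodes a J protein of the mitochondrial inner membrane. Hspa8 alone made up 23.3% to 33.9% of the members' summed RPKM in the libraries of WT cells. The stress-induced genes and most Dnajc genes stood far below. Just inside the limit of 1 RPKM lay Dnajb13 (1.56 RPKM) and just outside it Dnajc28 (0.914 RPKM). Hspb1, the gene of the small HSP27, was among the 19 matched symbols below the limit, at 0.343 RPKM. The members lie on 18 chromosomes, 15 of them have more than 1 listed transcript, and for 2 (Hspa13 and Hspa14) the longest transcript listed is a non-coding one. All 62 passed the filter on low counts of the test, as did 10 of the 19 below the limit, and 2 of the 19 (Dnajb8 and Hspb3) were listed at 0 in every library.

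The members' summed level was lower at 4 hr than at 0 hr and at 48 hr higher than at 0 hr in WT cells. In WT cells of the Stat5a line it was 3503 ± 249 RPKM at 0 hr (SD, n = 3), 2224 ± 474 at 4 hr (1677 in the library that stood apart, and 2489 and 2507 in the others), 3881 ± 40.8 at 24 hr and 5358 ± 338 at 48 hr. In KI cells of that line it was 3506 ± 45.2 RPKM at 0 hr and 3664 ± 149.6 at 48 hr. In the Stat5b line the sum went from 3136 ± 52.3 to 5595 ± 81.1 RPKM in WT cells, whereas in KI cells it was 3179 ± 196 at 0 hr, 2502 ± 30.7 at 24 hr and 2948 ± 233 at 48 hr. All 3 WT libraries of either line at 48 hr lay above all KI libraries. These sums are descriptions without a test. RPKM is scaled by all mapped reads, and the share of these on the transcripts used differed between groups. In Stat5a WT cells it was 69.2% to 71.9% at 0 hr and 80.5% to 84.1% at 48 hr. Stat5b cells at 48 hr were at 83.2% to 84.4% in WT and 72.6% to 78.5% in KI libraries. Differences in RPKM can thus exceed those of the tests below, which scale by counts on these transcripts.

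Each gene was tested with edgeR's quasi-likelihood test on the counts, fitted over all 16 groups and 15566 genes, with p-values adjusted by Benjamini and Hochberg's method over all genes. A gene is said to have risen or fallen where its adjusted p was at most 0.05, and is called where it also changed at least 2-fold. The first question was how these genes changed in WT cells during culture with IL-2. No cells cultured without IL-2 were analysed here, so IL-2 and time in culture cannot be told apart, and "with IL-2" stands for a comparison with the cells of 0 hr. In the Stat5a line, 3 members were called higher and 10 lower at 4 hr (of all genes tested, 10.0% were called higher and 11.4% lower), 1 higher and 8 lower at 24 hr (all genes 8.72% and 14.2%), and 12 higher and 7 lower at 48 hr (all genes 14.3% and 22.3%). As shares of the 62 members, those at 48 hr are 19.4% and 11.3%. Without the library that stood apart, 4 were called higher and 9 lower at 4 hr. In the Stat5b line, 3 were called higher and 6 lower at 4 hr (all genes 5.83% and 9.89%), 2 higher and 6 lower at 24 hr (all genes 9.07% and 13.5%), and again 12 higher and 7 lower at 48 hr (all genes 14.6% and 20.7%). By the adjusted p alone, 28 members had risen and 15 fallen at 48 hr in the Stat5a line (all genes 34.1% and 37.7%), and 30 had risen and 15 fallen in the Stat5b line (all genes 33.1% and 36.8%). The members' median log2 change at 48 hr was 0.10 and 0.30, beside -0.12 and -0.13 for all genes. The WT comparisons of a line share their 0 hr libraries. In each of these 6 comparisons the members called lower include Hspa1a, Hspa1b and Hspa2, which reach the limit of 1 RPKM only through the 0 hr libraries (their means over the other 35 libraries are 0.708, 0.758 and 0.699 RPKM), so these 3 calls follow in part from how the members were chosen. Markers of other cells moved in the same comparisons. At 48 hr against 0 hr in WT cells of either line, all 6 B cell markers (median -2.66 and -2.87), all 9 macrophage markers (-3.75 and -4.36) and all 6 erythroid genes (-5.01 and -3.72) were called lower, and all 7 cycling genes higher (3.66 and 3.80). Their part in the members' changes was not tested. Beside all genes, somewhat more members were called higher at 48 hr and fewer lower. The members split by kind: chaperonins, Hspa9, Hspa4 and several Dnajc genes had risen at 48 hr, and the stress-induced HSP70 genes and most Dnajb genes had fallen or did not pass the test.

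The second question was how the KI cells differed from WT cells at each time. At 0 hr no member was called in the Stat5a line by edgeR, with 9 at an unadjusted p under 0.05 and 0 called by DESeq2 (all genes 0.861% higher and 0.180% lower), and 1 was called higher in the Stat5b line by edgeR and 0 by DESeq2 (all genes 7.38% and 0.604%). At 4 hr edgeR and DESeq2 each called 0 members in either line, with 21 and 25 members at an unadjusted p under 0.05 (all genes 2.47% and 4.16% in the Stat5a line, and for the Stat5b line 9.20% and 1.23%). At 24 hr both tools called 0 in the Stat5a line, with 28 at an unadjusted p under 0.05 (all genes 3.21% and 1.24%), and edgeR called 0 higher and 9 lower in the Stat5b line (all genes 10.9% and 5.77%). At 48 hr 1 member was called lower in the Stat5a line (all genes 6.34% higher and 2.43% lower) and 17 were called lower in the Stat5b line, 27.4% of the members beside 9.81% of all genes. None was called higher there, beside 16.5% of all genes.

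By the adjusted p alone, 15 members had fallen and 0 risen in Stat5a KI cells at 24 hr (all genes 9.01% lower and 9.49% higher; 10 to 14 fell when 1 library was left out and 22 with DESeq2), and 31 of the 62 members had fallen and 3 risen at 48 hr, beside 22.8% and 21.5% of all genes. In Stat5b KI cells 32 had fallen and 3 risen at 24 hr (all genes 26.3% and 24.1%), where size factors in place of TMM, and DESeq2, gave 30 fallen and 7 risen. At 48 hr 35 had fallen and 8 risen, 56.5% and 12.9% beside 30.5% and 33.1% of all genes. The counts risen moved with single libraries. Leaving 1 out gave 1 to 4 risen in Stat5a KI cells at 48 hr (1 without replicate 2 or 3 of either genotype), 1 to 5 in Stat5b KI cells at 24 hr (1 without KI replicate 1 or 3 and 5 without KI replicate 2) and 5 to 7 at 48 hr (5 without replicate 3 of either genotype). The members' median log2 difference at 48 hr was -0.33 for Stat5a and -0.54 for Stat5b, where that of all genes was 0.038 and 0.10. These differences moved with the sums of CD8 T cell, B cell, macrophage, CD4 T cell, erythroid and cycling genes given above. A comparison of KI with WT cells shares its WT libraries with the IL-2 comparison of the same line and time.

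**Figure D1:**
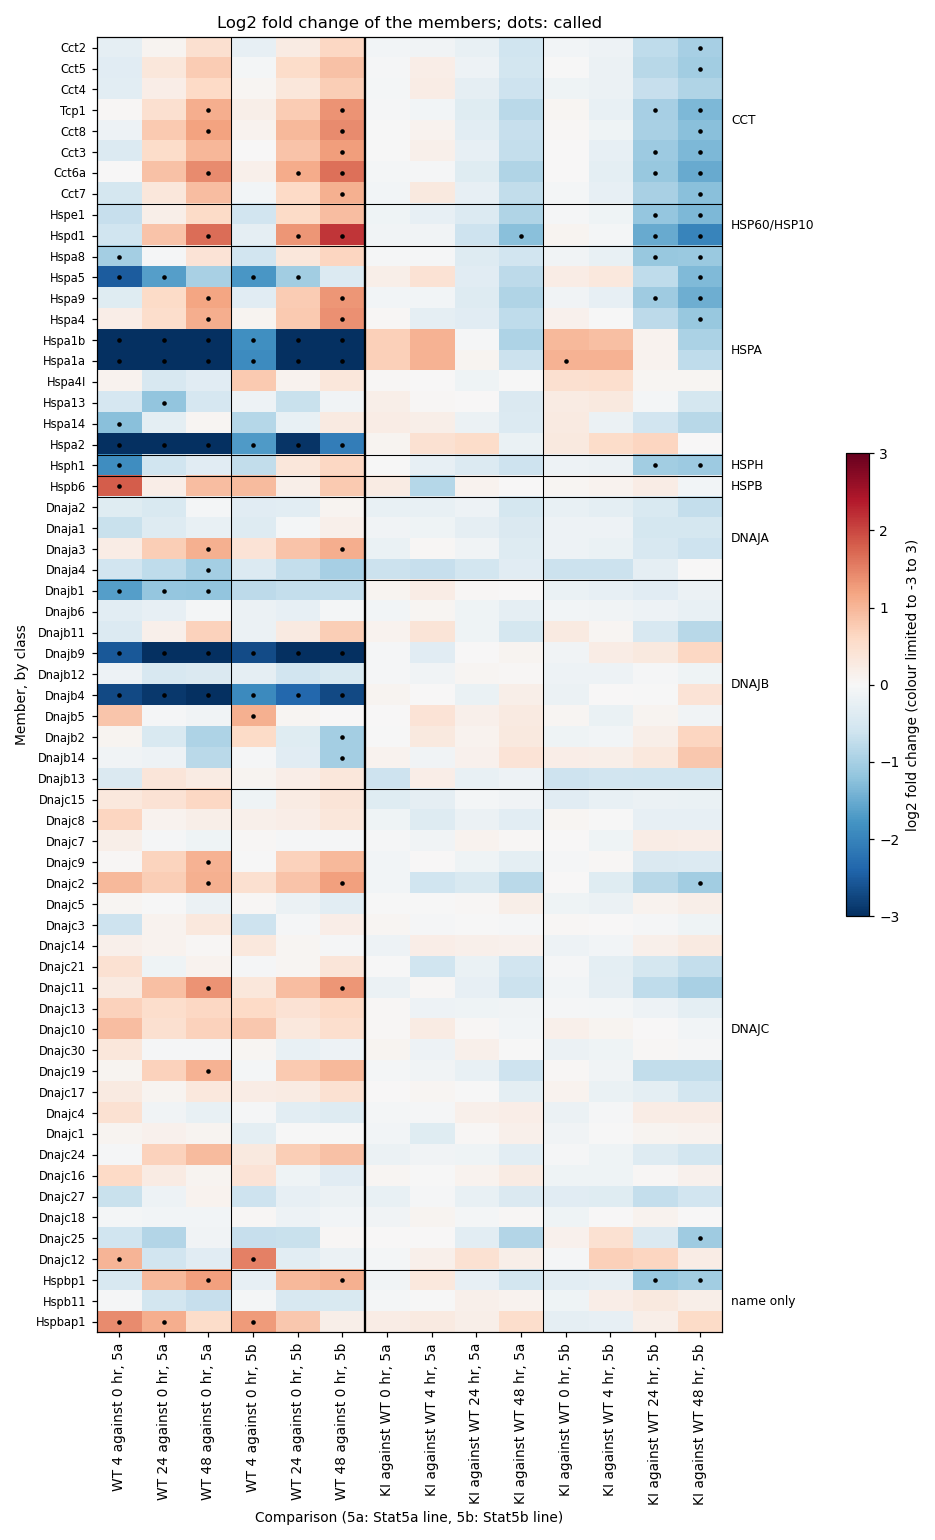
Log2 changes of the 62 members (rows, by class) in 14 comparisons (columns: WT cells with IL-2 against 0 hr, and KI against WT cells at each time, for both lines). Colour runs to 3 either way, and dots mark members called at an adjusted p of at most 0.05 and 2-fold: the chaperonin rows are positive in WT cells at 48 hr and negative in the KI columns at 24 and 48 hr.

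The CCT subunits moved as a block. With IL-2 all 8 had risen by 48 hr in WT cells of both lines, with a median log2 change of 0.96 and 1.16. In KI cells all 8 lay below WT at 48 hr, by a median of -0.70 for Stat5a and -1.25 for Stat5b. At 2-fold 3 (Tcp1, Cct6a and Cct8) were called with IL-2 in the Stat5a line, as were 5 in the Stat5b line (Tcp1, Cct3, Cct6a, Cct7 and Cct8), whereas 0 were called in Stat5a KI cells (8 at an unadjusted p under 0.05, 0 called by DESeq2) and 7 in Stat5b KI cells, the exception being Cct4 at -0.91 ± 0.14. Of all genes 14.3% and 14.6% were called higher with IL-2, and in KI cells 22.8% and 30.5% fell, with 2.43% and 9.81% called lower. The summed CCT level was 1548 ± 99.8 RPKM in WT and 998 ± 51.4 RPKM in KI cells of the Stat5a line at 48 hr (SD, n = 3 each), and 1632 ± 34.3 and 762 ± 63.4 RPKM in the Stat5b line. At 0 hr the 4 groups had been at 732, 718, 697 and 712 RPKM, so the Stat5b KI cells at 48 hr were near their starting level.

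Within the complex the levels were uneven. At 0 hr Cct2 was the highest subunit and Cct6a the lowest in all 4 groups, for example 147.1 ± 9.67 RPKM (SD, n = 3) against 53.1 ± 1.26 RPKM (SD, n = 3) in WT cells of the Stat5b line. At 48 hr the order had changed to Cct5 highest and Cct7 lowest in all 4 groups, and the ratio of the highest to the lowest group mean, 2.77 at 0 hr in those WT cells, was 1.75. Over the 16 groups this ratio ranged from 1.75 to 2.77. With IL-2 for 48 hr Cct6a, the lowest at the start, changed by 1.42 ± 0.065 and 1.66 ± 0.066 on the log2 scale (± SE) in the Stat5a and Stat5b lines, and Cct2, the highest, by 0.49 ± 0.065 and 0.63 ± 0.065. Both had risen.

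Cct3, the gamma subunit, followed the course of the block. In WT cells of the Stat5a line it was at 86.1, 65.4 and 69.3 RPKM at 0 hr and 158, 179 and 169 RPKM at 48 hr, and in KI cells at 76.2, 69.6 and 76.7 RPKM and 108.5, 105.5 and 104.7 RPKM. Stat5b WT cells went from 63.7, 69.6 and 63.7 to 183, 170.1 and 179 RPKM and KI cells from 65.3, 73.1 and 69.8 to 77.7, 76.8 and 66.4 RPKM. The genotypes were alike in range at 0 hr, and at 48 hr every KI library was below every WT library in both lines. The fall in KI cells at 48 hr was -0.72 ± 0.084 (log2 ± SE, adjusted p = 1.26e-08) in the Stat5a line and -1.35 ± 0.085 (adjusted p = 5.68e-16) in the Stat5b line. At 24 hr the values were -0.25 ± 0.084 and -1.10 ± 0.085.

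Cct6a had the largest change of the block at 48 hr, with IL-2 and in KI cells. Its WT libraries at 48 hr measured 157, 190.3 and 186 RPKM (Stat5a line) and 195, 185 and 188 RPKM (Stat5b line), and its KI libraries 106.6, 94.7 and 95.02 RPKM and 71.6, 73.7 and 65.2 RPKM, a difference of -0.90 ± 0.064 and -1.51 ± 0.065 on the log2 scale. Tcp1, the alpha subunit, was -0.81 and -1.35, Cct8 -0.68 and -1.26, and Cct7 -0.74 and -1.25 in the Stat5a and Stat5b lines. Cct4 and Cct2 had the smallest differences in Stat5b KI cells, -0.91 and -1.01. In KI cells of the Stat5b line 3 subunits (Tcp1, Cct3 and Cct6a) were already called lower at 24 hr (2 by DESeq2), with all 8 past the adjusted p. Of all genes 5.77% were called lower in that comparison and 26.3% fell. At 4 hr of IL-2 the WT values were small and mixed, from -0.53 (Cct7) to 0.024 (Tcp1) in the Stat5a line, where 5 subunits had fallen (without the library that stood apart 4 had fallen, with values from -0.38 for Cct2 to 0.054 for Cct6a), and from -0.24 (Cct2) to 0.18 (Tcp1) in the Stat5b line. Of all 15566 genes 9094 passed the adjusted p at 4 hr in the Stat5a line with that library, 4591 of them higher and the rest lower. Without that library Cct7 was -0.27, and Cct4 was -0.028 (adjusted p = 0.727) in place of -0.32.

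**Figure D2:**
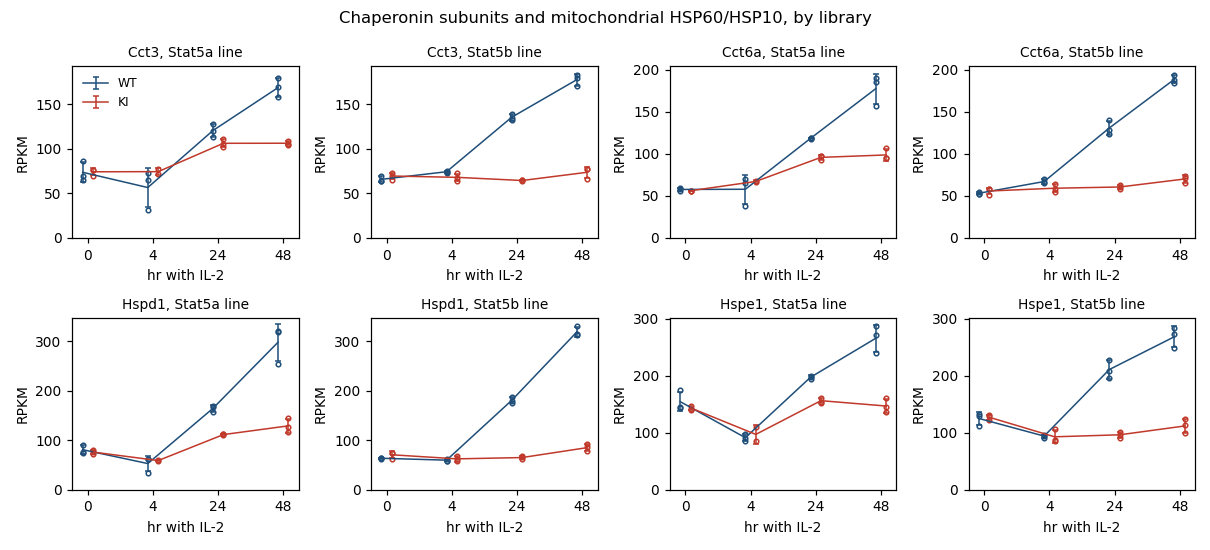
RPKM of Cct3, Cct6a, Hspd1 and Hspe1 in every library by time in culture (evenly spaced time points on the x axis), for WT and KI cells of both lines, with bars for the mean ± SD. At 48 hr every WT library lies above every KI library for all 4 genes, and Hspd1 in WT cells reaches 255 to 330 RPKM.

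Cct5, the epsilon subunit, is the only CCT gene among the members with a promoter in the RefSeq table whose window (250 bases before to 50 after the start) holds the letters of a STAT-type site, TTCNNNGAA, known as a GAS motif. Its 200 bases before the start are shown because STAT5 is the factor changed in these mice. They lie at chr15:31601847-31602046 on the minus strand (GRCm38.p6), with the GAS letters TTCGTGGAA first and a heat shock element core TTCCAGAA second in capitals. Dimers of STAT5 bind GAS motifs, and a match of letters is a description and not a site.
Cct5: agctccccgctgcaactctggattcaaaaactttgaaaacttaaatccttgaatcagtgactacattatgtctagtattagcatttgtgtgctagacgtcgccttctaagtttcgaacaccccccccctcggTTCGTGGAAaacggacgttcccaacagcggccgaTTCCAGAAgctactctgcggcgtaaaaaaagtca
Cct5 changed with IL-2 by 0.76 ± 0.067 and 0.87 ± 0.067 at 48 hr and differed in KI cells by -0.56 ± 0.067 and -1.04 ± 0.067.

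Hspd1, the HSP60 of mitochondria, changed most of all members at 48 hr in the KI cells of both lines. It was at 91.5, 77.1 and 74.5 RPKM at 0 hr and 255, 318 and 322 RPKM at 48 hr in WT cells of the Stat5a line, a change of 1.67 ± 0.085 on the log2 scale (3.19-fold, adjusted p = 3.22e-19). The Stat5b line went from 63.5, 65.1 and 62.4 to 330.3, 315 and 313 RPKM, a change of 2.15 ± 0.087 (4.44-fold). The KI cells at 48 hr measured 144.2, 116.2 and 127.4 RPKM in the Stat5a line and 86.2, 91.7 and 77.7 RPKM in the Stat5b line. No KI library of either line came near the WT range. The differences were -1.26 ± 0.084 (2.39-fold lower, adjusted p = 9.08e-14) and -1.98 ± 0.086 (3.96-fold lower, adjusted p = 6.04e-20), and at 24 hr -0.63 ± 0.083 and -1.50 ± 0.085. At 0 hr they were -0.11 and 0.089, neither past the test.

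Its partner Hspe1, the HSP10 lid, moved less. WT cells at 48 hr measured 239, 286 and 271 RPKM in the Stat5a line and 272, 284 and 248 RPKM in the Stat5b line, and KI cells 160.4, 144.2 and 135.7 and 113.1, 123.8 and 98.6 RPKM, again with no overlap. Hspe1 changed by 0.57 ± 0.11 and 0.93 ± 0.11 with IL-2 at 48 hr, and KI cells differed by -0.91 ± 0.11 and -1.34 ± 0.11. At 0 hr Hspe1 stood above Hspd1 in RPKM, at 154 against 81.02 RPKM in WT cells of the Stat5a line, and at 48 hr below it, at 265 against 298 RPKM. In KI cells of both lines Hspe1 stood above Hspd1 at 48 hr as well, at 146.8 against 129.3 RPKM in the Stat5a line and at 111.8 against 85.2 RPKM in the Stat5b line.

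Hspd1 and Hspe1 lie head to head on chromosome 1. RefSeq lists starts of Hspd1, on the minus strand, at 55088243 and 55087932, which are 95 and 216 bases from the start of Hspe1 at 55088148 on the plus strand. From the first of these starts the transcripts overlap on opposite strands, and whether the counting used strand is not stated in the sources used here. The stretch between the second start and that of Hspe1 is shown because it lies before both genes. The 200 bases before Hspe1 are chr1:55087948-55088147 on the plus strand (GRCm38.p6). Capitals mark heat shock element blocks, the inverted TTC and GAA repeats to which heat shock factor (HSF) binds.
Hspe1: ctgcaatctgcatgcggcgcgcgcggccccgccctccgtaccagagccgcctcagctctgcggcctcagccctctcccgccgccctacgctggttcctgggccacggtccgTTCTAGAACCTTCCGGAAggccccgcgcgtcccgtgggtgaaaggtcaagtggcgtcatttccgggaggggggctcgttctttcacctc
The 4 blocks in this stretch make a 3-block element, which only 4 of the 52 members with a promoter in the table hold (Dnajb6, Hspd1, Hspe1 and Hsph1).

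Hspa9 and Hspa4 moved in the same directions as the chaperonins at 48 hr. Hspa9 of mitochondria changed by 1.18 ± 0.060 and 1.33 ± 0.060 with IL-2 at 48 hr and by -0.90 ± 0.059 and -1.46 ± 0.060 in KI cells, whose libraries measured 95.2, 87.4 and 90.5 RPKM (Stat5a line) and 68.95, 69.9 and 62.1 RPKM (Stat5b line) against 148.04, 173 and 169 and 179, 178 and 167 RPKM in WT cells. No KI library reached the WT range. Hspa4, an HSP110-type exchange factor of the cytosol, changed by 1.10 ± 0.088 and 1.38 ± 0.088 with IL-2 and by -0.76 ± 0.087 and -1.13 ± 0.088 in KI cells. Of the 10 Hspa genes 6 fell in Stat5b KI cells at 48 hr and 4 were called (Hspa5, Hspa8, Hspa9 and Hspa4), while in Stat5a KI cells 6 fell and 0 were called (with 6 at an unadjusted p under 0.05 and 0 called by DESeq2). Of all genes 30.5% fell and 9.81% were called lower in Stat5b KI cells, and 22.8% and 2.43% in Stat5a KI cells.

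Hspa8, the most abundant member, dipped before it rose. In WT cells of the Stat5a line it measured 1190.1, 1165 and 940.2 RPKM at 0 hr, 585, 419 and 583 RPKM at 4 hr, and 1595, 1805 and 1698 RPKM at 48 hr. In WT cells of the Stat5b line the libraries read 1019, 1003 and 966 RPKM, then 774, 729.6 and 765 RPKM, and 1798, 1718 and 1801 RPKM at 48 hr. The 3 times did not overlap in either line. KI cells at 48 hr held 1216, 1178 and 1159.7 RPKM in the Stat5a line and 903, 953 and 747 RPKM in the Stat5b line, differences of -0.57 ± 0.084 and -1.11 ± 0.085. In Stat5b KI cells the libraries of 48 hr overlapped those of 0 hr, which had been 903, 1062 and 930.5 RPKM. Hsph1, the HSP110 exchange factor, followed the same course: 34.2 ± 8.16 RPKM (SD, n = 3) at 0 hr, 23.1 ± 1.85 RPKM (SD, n = 3) at 4 hr and 59.8 ± 3.11 RPKM (SD, n = 3) at 48 hr in WT cells of the Stat5b line, against 29.5 ± 2.17 RPKM (SD, n = 3) in its KI cells (-1.10 ± 0.17). In the Stat5a line the 0 hr libraries of Hsph1 were widely spread, at 91.6, 64.6 and 40.8 RPKM, its change at 4 hr was -1.87 ± 0.17 (-1.80 without the library that stood apart), and its value at 48 hr (-0.33 ± 0.16) did not pass the test.

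The stress-induced HSP70 genes had their highest means in freshly isolated cells and were lower after 4 hr of culture in both lines. They are members through those 0 hr levels, as given above, so the fall is a description. Hspa1a measured 13.7, 33.3 and 8.88 RPKM in the 3 WT libraries of the Stat5a line at 0 hr, 0.841, 0.702 and 0.719 RPKM at 4 hr and 0.0724, 0.298 and 0.156 RPKM at 24 hr. WT values of the Stat5b line were 1.59, 5.95 and 5.96 RPKM, then 1.61, 1.29 and 1.20 RPKM and 0.193, 0.165 and 0.221 RPKM. The 0 hr libraries differed among themselves by several-fold, and still all lay above all 24 hr libraries. The changes at 24 hr were -6.89 ± 0.54 (118.9-fold lower) and -4.72 ± 0.51 (26.3-fold lower), where the 24 hr WT libraries held 10 to 44 reads of the gene. Hspa1b, its neighbour, changed by -6.84 ± 0.52 and -4.56 ± 0.48. How the counting treated a read that fits both of these near-identical genes is not stated beyond the use of uniquely mapped reads, so the split between them is uncertain.

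The promoters of Hspa1a and Hspa1b are shown to make that likeness visible. Their 200 bases before the start, chr17:34972157-34972356 and chr17:34959239-34959438, both on the minus strand (GRCm38.p6), are identical at 199 of 200 bases, and the windows of 300 bases at 296. Capitals mark a 2-block heat shock element core.
Hspa1a: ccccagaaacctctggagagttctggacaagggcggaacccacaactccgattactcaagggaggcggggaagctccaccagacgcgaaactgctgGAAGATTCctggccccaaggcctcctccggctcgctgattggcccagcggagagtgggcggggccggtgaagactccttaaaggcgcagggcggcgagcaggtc
Hspa1b: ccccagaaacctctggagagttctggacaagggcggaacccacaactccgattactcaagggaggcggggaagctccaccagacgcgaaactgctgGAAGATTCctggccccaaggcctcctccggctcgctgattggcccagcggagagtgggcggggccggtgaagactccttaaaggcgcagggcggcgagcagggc
The means of Hspa1a at 0 hr were higher in KI than in WT cells of both lines, with overlap between the groups. In the Stat5b line the sums of other cells' markers were higher in KI cells at 0 hr too, at 391 to 969 against 37.9 to 116.9 RPKM for erythroid genes, 204 to 323 against 86.97 to 106.6 RPKM for macrophage markers and 209.9 to 217 against 52.6 to 59.99 RPKM for B cell markers. In the Stat5a line the erythroid sums overlapped (139.3 to 390.0 and 62.3 to 356 RPKM), and the macrophage and B cell sums were higher in each KI library than in any WT library, from 169.9 and 229 RPKM up. Their part in the 0 hr differences of the members was not tested. At 0 hr the KI libraries held 27.9, 38.1 and 27.7 RPKM in the Stat5a line and 5.66, 16.4 and 6.92 RPKM in the Stat5b line. The difference was 0.72 ± 0.38 (adjusted p = 0.343) and 1.04 ± 0.39 (adjusted p = 0.0473), and the latter, the only call at 0 hr, was 0.44 without replicate 2 of the KI cells and 0.62 without replicate 1 of the WT cells, no longer past the test. The call was also lost with DESeq2 (adjusted p = 0.0781), without a filter (0.0528), with all 48 libraries (0.154), with the compared groups only (0.114) and, at 0.99 and so just under 2-fold, with the replicate block. At 48 hr Hspa1a and Hspa1b were at most 0.543 RPKM in every library of both genotypes.

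Hspa2, a further HSP70 gene known best from testis, is a member through its 0 hr level too. Its changes, given as a description, were -3.15 ± 0.23 (-3.21 without the library that stood apart) and -1.70 ± 0.21 at 4 hr and by -4.08 ± 0.24 and -2.93 ± 0.23 at 24 hr, from a mean of 5.69 and 2.40 RPKM at 0 hr. Dnajb1, the main J protein partner of the stress-induced HSP70, went from 72.8, 85.5 and 57.1 RPKM at 0 hr to 38.5, 35.7 and 34.4 RPKM at 24 hr in WT cells of the Stat5a line, and from 50.4, 63.2 and 51.9 to 36.9, 37.6 and 40.4 RPKM in the Stat5b line. The 2 times did not overlap, and from 24 hr on the level was flat. Its change at 48 hr was -1.19 ± 0.15 and -0.70 ± 0.15. At 4 hr the library that stood apart read 9.42 RPKM and the other 2 of its group 30.4 and 31.5 RPKM, and the change was -1.65 with it and -1.39 without it. Dnajb4, a close relative of Dnajb1, fell by more, -3.30 ± 0.14 and -2.71 ± 0.14 at 48 hr. In KI cells the Dnajb1 values at 48 hr were 0.015 and -0.17, neither past the test.

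**Figure D3:**
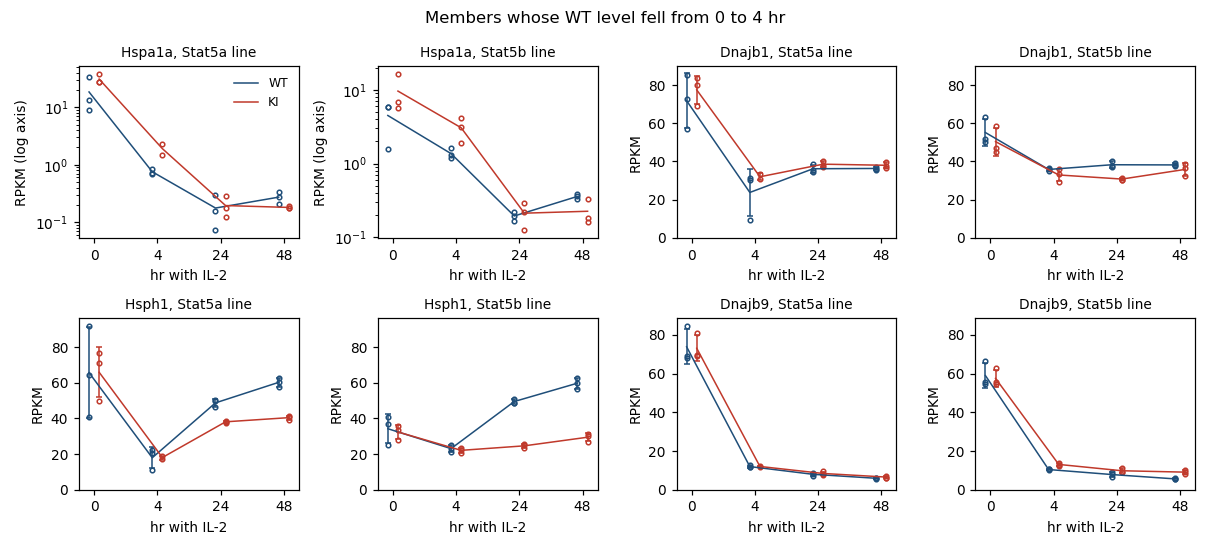
RPKM of Hspa1a (log axis, points only), Dnajb1, Hsph1 and Dnajb9 in every library by time in culture (evenly spaced time points), for WT and KI cells of both lines, with bars for the mean ± SD on the linear panels. All 4 fall in WT cells from 0 to 4 hr, Hsph1 is back near or above its starting mean at 48 hr in WT cells, and Dnajb9 reaches 5.37 to 6.29 RPKM there.

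The ER members split. Hspa5 (BiP) stood at 377, 416 and 291 RPKM at 0 hr in the Stat5a line (WT cells) and at 81.1, 32.9 and 83.8 RPKM at 4 hr. The Stat5b line was at 291, 275 and 268 RPKM and then at 98.2, 89.6 and 91.9 RPKM. All 4 hr libraries were far below all 0 hr libraries, with changes of -2.49 ± 0.12 (-2.31 without the library that stood apart) and -1.75 ± 0.12. At 48 hr all WT libraries lay above those of 4 hr, with means of 215 ± 23.4 RPKM (SD, n = 3) and 235 ± 4.39 RPKM (SD, n = 3), a comparison that was not tested. They were still lower than at 0 hr (-0.96 ± 0.12 and -0.42 ± 0.12). KI cells at 48 hr measured 128.5 ± 16.5 RPKM (SD, n = 3) and 98.8 ± 9.31 RPKM (SD, n = 3). The KI differences were -0.79 ± 0.12 and -1.33 ± 0.12. Dnajb9 (ERdj4), an ER J protein that acts with BiP, fell from 66.6, 54.7 and 55.7 RPKM at 0 hr to 10.6, 10.2 and 10.5 RPKM at 4 hr and 5.37, 5.86 and 5.59 RPKM at 48 hr in WT cells of the Stat5b line, a change of -3.57 ± 0.15, and by -3.85 ± 0.16 in the Stat5a line. Its mean did not return to the 0 hr level, and in Stat5b KI cells at 48 hr it stood above WT, at 8.08, 9.21 and 9.99 RPKM (0.62 ± 0.15, adjusted p = 3.69e-04). In Stat5a KI cells the difference was 0.092 ± 0.15 and did not pass the test. Dnajb11 (ERdj3) and Dnajc3 (p58IPK), further ER J proteins, changed by 0.74 and 0.20 with IL-2 in the Stat5b line, and by -0.84 and -0.13 in its KI cells.

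The Hspa5 promoter is shown because, of the 52 members with a promoter in the table, it and that of Dnajc3 alone hold the full ER stress element, CCAAT and CCACG with 9 bases between, through which the unfolded protein response acts. Its 200 bases before the start are chr2:34771890-34772089 on the plus strand (GRCm38.p6), with the element in capitals.
Hspa5: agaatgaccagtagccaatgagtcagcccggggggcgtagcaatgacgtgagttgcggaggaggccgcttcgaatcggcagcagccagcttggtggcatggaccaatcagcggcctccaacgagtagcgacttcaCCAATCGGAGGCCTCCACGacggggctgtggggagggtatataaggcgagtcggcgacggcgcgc
The element occurs in 0.137% of the windows of 27018 genes in the table.

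Among the 37 DnaJ genes, 5 were called higher with IL-2 at 48 hr in the Stat5a line (Dnaja3, Dnajc2, Dnajc9, Dnajc11 and Dnajc19) and 3 in the Stat5b line (Dnaja3, Dnajc2 and Dnajc11), and 4 were called lower in each (Dnaja4, Dnajb1, Dnajb4 and Dnajb9, and Dnajb2, Dnajb4, Dnajb9 and Dnajb14). These are 13.5% and 8.11% higher and 10.8% lower, where of all genes 14.3% and 14.6% were called higher and 22.3% and 20.7% lower, so no share of the DnaJ genes lay above that of all genes. Dnajc9 is a histone chaperone (-0.29 and -0.42 in KI cells). Dnaja3 (Tid1), the J protein of the mitochondrial matrix, changed by 1.06 ± 0.084 and 1.10 ± 0.084 with IL-2 at 48 hr and by -0.40 ± 0.083 and -0.62 ± 0.083 in KI cells. Dnajc19 of the mitochondrial import motor changed by 1.04 and 0.98 with IL-2 and by -0.61 and -0.74 in KI cells, and Dnajc11 of the mitochondrial inner membrane organising complex by 1.36, 1.32, -0.65 and -0.97 in the same order. All of these values passed the adjusted p. Dnajc2 (MPP11), the J protein of the ribosome-associated complex, rose in WT cells of the Stat5b line from 26.3, 28.4 and 29.1 to 73.4, 75.5 and 74.8 RPKM (1.24 ± 0.15) and stood at 37.3, 40.8 and 35.7 RPKM in KI cells (-1.05 ± 0.15). Its ribosomal partner among the HSP70 genes, Hspa14, differed by -0.40 ± 0.16 and -0.83 ± 0.16 in KI cells and had not passed the test with IL-2 at 48 hr (0.055 and 0.28). These values are of its longest transcript, a non-coding one with a mean of 3.69 RPKM. Its transcript with the largest mean count, at 31.0 RPKM, changed by 1.58 ± 0.075 and 1.65 ± 0.076 with IL-2 and by -0.61 ± 0.073 and -1.05 ± 0.074 in KI cells, so the result with IL-2 depends on the transcript taken.

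Dnaja1 and Dnaja2, J proteins of the cytosol, changed by less than 2-fold at 48 hr, with IL-2 and in KI cells. Dnaja1, a partner of Hspa8, measured 50.4, 49.2 and 46.7 RPKM at 0 hr and 61.2, 61.4 and 62.1 RPKM at 48 hr in WT cells of the Stat5b line, and 43.6, 47.3 and 44.2 RPKM in KI cells at 48 hr, with no overlap between the genotypes. The KI difference was -0.44 ± 0.083 in the Stat5a and -0.53 ± 0.083 in the Stat5b line. Dnaja2 fell by 0.54 and 0.71 on the log2 scale in KI cells. Both Dnaja2 (-0.23 and -0.22) and Dnaja4 were lower in KI cells already at 0 hr. At that time 2 members had fallen and 0 risen in the Stat5a line (all genes 0.880% and 2.56%), and 7 and 2 in the Stat5b line (all genes 9.26% and 13.6%). The 7 became 2 to 6 when 1 library was left out (2 without KI replicate 1 and 3 without WT replicate 2). In the Stat5a line the 2 became 1 without KI replicate 2, and without WT replicate 2 there were 2 fallen and 2 risen. With all 48 libraries 1 had fallen and 0 risen in the Stat5b line, and 0 and 0 in the Stat5a line. Dnaja4 measured at 0 hr 12.8, 13.8 and 11.7 RPKM in WT and 7.82, 9.22 and 8.47 RPKM in KI cells of the Stat5b line (-0.65 ± 0.18), and 14.4, 9.35 and 14.7 and 7.11, 8.52 and 9.43 RPKM in the Stat5a line (-0.63 ± 0.18), where the highest KI library reached just above the lowest WT library. When 1 library was left out, Dnaja4 kept an adjusted p under 0.05 in 6 of 6 cases in the Stat5b line but in 1 of 6 in the Stat5a line, where the value was -0.53 to -0.81 and the adjusted p 0.0118 to 0.279. Dnaja2 did so in 5 of 6 and 1 of 6 cases. Without any single one of WT replicates 1 and 3 and KI replicates 1 and 3, none of the members had fallen in that line. At 48 hr the KI differences of Dnaja4 were -0.34 and 0.017, neither past the test. Dnajc15, the most abundant Dnajc gene, changed by 0.62 and 0.40 with IL-2 and by -0.12 and -0.19 in KI cells at 48 hr, the last pair not past the test.

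By class, the Stat5b KI cells at 48 hr had fallen in 3 of 4 Dnaja genes, 3 of 10 Dnajb genes and 11 of 23 Dnajc genes, and risen in 0, 4 and 3, beside 30.5% fallen and 33.1% risen of all genes, so that the Dnajb shares lie near those of all genes. In Stat5a KI cells at 48 hr 3 Dnaja, 2 Dnajb and 8 Dnajc genes had fallen and 0, 1 and 1 had risen (all genes 22.8% and 21.5%). The 4 Dnajb genes higher in Stat5b KI cells were Dnajb14 (0.80), Dnajb2 (0.64), Dnajb9 (0.62) and Dnajb4 (0.42), and all 4 had fallen with IL-2 at 48 hr in WT cells of that line (-1.03, -1.01, -3.57 and -2.71). The same WT libraries enter both sets of values. Dnajb14 is an ER membrane J protein, also higher in Stat5a KI cells (0.41 ± 0.15).

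A few members peaked at 4 hr. Hspbap1 rose in WT cells of the Stat5b line from 1.60, 1.73 and 1.48 to 4.36, 4.13 and 4.68 RPKM (1.28 ± 0.093) and by 1.41 ± 0.094 in the Stat5a line (1.53 without the library that stood apart). Dnajc12 went from 1.04, 1.51 and 0.900 to 4.35, 3.68 and 3.14 RPKM in WT cells of the Stat5b line (1.52 ± 0.20), and was higher still in KI cells at 4 hr, at 6.49, 7.39 and 5.83 RPKM (0.70 ± 0.19, adjusted p = 0.00482). In the Stat5a line Dnajc12 rose by 1.01 ± 0.20 (1.22 without the library that stood apart), and its KI difference at 4 hr was 0.15 ± 0.22 (-0.056 without it). Dnajb5 was called at 4 hr in the Stat5b line (1.06 ± 0.12) and was 0.84 ± 0.12 in the Stat5a line (1.04 without that library, past 2-fold). Hspb6 was called at 4 hr in the Stat5a line, at 1.82 ± 0.27, on libraries of 2.01, 5.20 and 2.81 RPKM, of which the highest is the one that stood apart. Without that library the change was 0.99, and in the Stat5b line it was 0.95 ± 0.27.

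Leaving that library out also ended most of the small KI differences of the Stat5a line at 4 hr. By the adjusted p, 6 members were higher and 7 lower in KI cells with it (all genes 11.9% and 12.7%), and 1 was higher and 1 lower without it. Leaving out replicate 1 of the KI cells left 0 in either direction and replicate 2 left 2 and 3, whereas without WT replicate 1 there were 9 and 14 and without WT replicate 3 there were 9 and 13. Hspb6 went from -0.87 to -0.03, Dnajc2 from -0.61 to -0.11 and Hspa5 from 0.43 to 0.25. At 4 hr in the Stat5b line, 5 members had risen and 10 fallen in KI cells, 8.06% and 16.1% of the members beside 14.5% and 12.8% of all genes. Leaving out 1 library gave 1 to 6 risen (1 without WT replicate 3, 2 without replicate 2 of either genotype and 3 without KI replicate 1) and 5 to 8 fallen (5 without KI replicate 3 and 6 without KI replicate 1). Those risen were Dnajc12, Hspa2 (0.56), Hspa4l (0.50), Dnajc25 (0.45) and Hspa5 (0.31). Among those fallen were Cct6a (-0.30), Hspa9 (-0.25), Cct3 (-0.24) and Tcp1 (-0.22). In the same comparison 6 of 6 B cell markers, 8 of 9 macrophage markers and 6 of 6 erythroid genes were called higher and 0 lower. Their median log2 differences were 1.97, 2.23 and 3.18, and their part in the members' differences was not tested.

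To ask whether the change in culture with IL-2 differed between genotypes, the change from 0 to 48 hr was compared between KI and WT cells within a line. In the Stat5a line 1 member was called, Hspd1, whose change differed by -1.15 ± 0.12 on the log2 scale (all genes 3.16% called higher and 3.09% lower). By the adjusted p alone 1 member was higher there and 27 were lower, the latter with all 8 CCT subunits (median -0.66), Hspd1 and Hspe1. Of all 15566 genes 4351 passed, 1838 of them higher and the rest lower. The 27 became 22 to 26 when 1 library was left out and 9 with all 48 libraries. The adjusted p alone gave 33 members lower and 8 higher in the Stat5b line, beside 7691 of all genes, 3705 of them higher. For the Stat5b line 18 members were called lower and 0 higher, 29.03% of the members beside 11.1% of all genes called lower and 10.3% higher. The 18 include 6 of the 8 CCT subunits, Hspd1 (-2.07) and Hspe1 (-1.31), and Hspa5, Hspa8, Hspa9 and Hspa4. They also include Hspa1a and Hspa1b, which are members only through the 0 hr libraries from which this change is taken, so their values are a description. Of the 59 members left without these and Hspa2, 16 were called lower (27.1%). The calls of Hspa1a and Hspa1b were lost without 1 of the 0 hr KI libraries, replicate 2 (-1.20 and -1.26, adjusted p = 0.137 and 0.0905). The call of Hspa1a was also lost without replicate 1 of the WT cells at 0 hr (adjusted p = 0.0633) and without replicate 2 or 3 of the KI cells at 48 hr (adjusted p = 0.067 and 0.0593). DESeq2 called 2 members in the Stat5a and 18 in the Stat5b line.

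The KI and WT cells lay further apart in the Stat5b than in the Stat5a line for the chaperonins. At 48 hr the difference KI minus WT was lower in the Stat5b line for 46 of the 62 members (74.2%), beside 49.7% of all genes tested. Of the 62 members 41 were lower in KI cells of both lines and 14 higher in both, beside 6092 and 7333 of all 15566 genes. Over the 62 members the 2 differences correlated at a Pearson's r of 0.950, and over all 15566 genes at 0.745, as a description across genes that share the 12 libraries of 48 hr. Tested as an interaction, 0 members were called as different between the lines by edgeR (20 at an unadjusted p under 0.05, 0 called by DESeq2), beside 1.55% and 0.514% of all genes called higher and lower. By the adjusted p alone 14 were lower in the Stat5b line and 0 higher, 22.6% of the members beside 7.83% lower and 3.20% higher of all genes. With all 48 libraries these 14 became 0, and without replicate 1 of the WT cells at 48 hr in the Stat5a line they became 9. They were 7 of the 8 CCT subunits (all but Cct4, at -0.28 ± 0.19), Hspd1 (-0.73 ± 0.12, adjusted p = 9.39e-05), Hspa9, Hspa8, Hspa5, Hspa4, Hspbp1 and Dnajc11. The lines share no libraries, so a difference between the alleles and one between the sets of libraries cannot be told apart. The sum of erythroid genes in KI cells, 17.9 to 22.5 RPKM in the Stat5a and 110.8 to 206 RPKM in the Stat5b line, and that of cycling genes, 602 to 686 and 344 to 493 RPKM, differed between the lines too. In the same interaction 2 of 3 CD4 T cell, 2 of 6 B cell and 1 of 9 macrophage markers were called higher and 0 lower. Their medians were 1.19, 1.69 and 2.22. The part of all these genes in the difference was not tested.

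**Figure D4:**
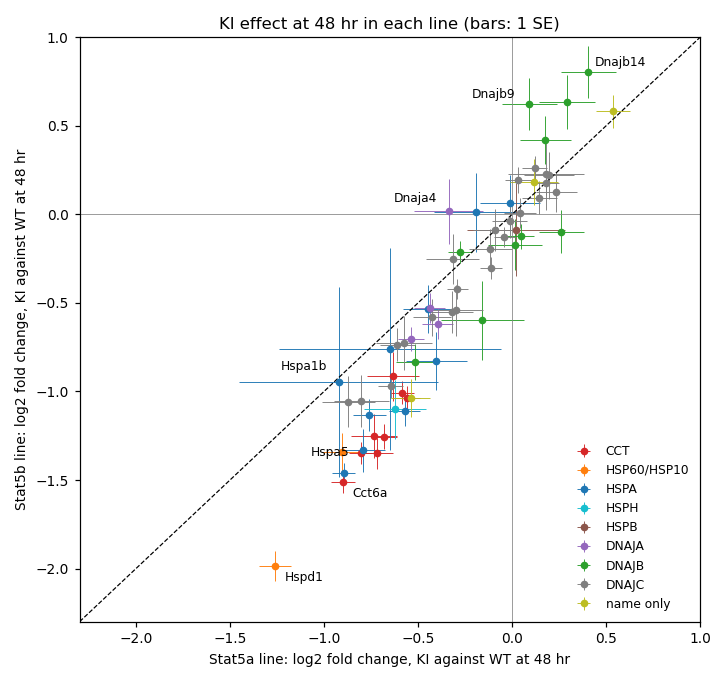
Log2 difference KI minus WT at 48 hr for the 62 members in the Stat5a line (x axis) and the Stat5b line (y axis), coloured by class, with bars of 1 SE and a dashed line of equality. The CCT subunits, Hspd1 and Hspe1 lie at the lower left and under the dashed line. Of the 62 members 41 are negative in both lines, beside 6092 of all 15566 genes tested.

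The partners of these chaperones, 53 genes in lists of HSP90 and its co-chaperones, HSP70 exchange factors and other partners, prefoldin and phosducin-like feeders of CCT, mitochondrial proteases with Clpb, ER folding factors, heat shock factors and Myc, were followed in the same way. Of the 52 tested, 40 had risen and 6 fallen with IL-2 at 48 hr in WT cells of the Stat5a line, as had 42 and 4 in those of Stat5b (all genes 34.1% and 37.7%, and 33.1% and 36.8%). In KI cells at 48 hr 0 had risen and 42 fallen in the Stat5a line (2 called, median -0.52) and 1 had risen and 45 fallen in the Stat5b line (19 called lower, median -0.88). Of all genes 22.8% and 30.5% had fallen, and 2.43% and 9.81% were called lower. All 4 HSP90 genes fell in both lines. Hsp90aa1, the inducible cytosolic form, differed by -1.17 ± 0.12 and -1.71 ± 0.12, Hsp90ab1, the constitutive one, by -0.72 ± 0.097 and -1.30 ± 0.098, Hsp90b1 of the ER by -0.65 and -1.05, and Trap1 of mitochondria by -0.36 and -0.82.

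All 9 ER folding factors fell in KI cells of either line at 48 hr, with 1 called in the Stat5a and 5 in the Stat5b line (of all genes 22.8% and 30.5% fell and 2.43% and 9.81% were called lower, also the background of the next lists). Of the 12 HSP90 co-chaperones 9 fell in Stat5a and 10 in Stat5b KI cells, where of the latter 5 were called, and of the 12 HSP70 partners 9 and 10 fell. Of the prefoldin subunits measured, 4 of 5 fell in both lines, and the exception, Pfdn5, was 0.12 and 0.35. All 4 genes of the mitochondrial list (the proteases Clpp, Clpx and Lonp1, and Clpb) fell in both lines. The ER folding factors went the other way at earlier times. At 0 hr 1 had risen in Stat5a and 6 in Stat5b KI cells, and 0 had fallen (all genes 2.56% and 13.6% risen). At 4 hr 5 and 3 had risen and 0 and 1 fallen (all genes 11.9% and 14.5% risen). The Stat5a count at 4 hr includes the library that stood apart.

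The heat shock factors and Myc were followed as regulators. Hsf1, the main activator of heat shock genes, fell slightly with IL-2 (-0.22 ± 0.064 and -0.38 ± 0.064 at 48 hr) and was at -0.0061 ± 0.064 and -0.14 ± 0.065 in KI cells at 48 hr, neither past the test. Hsf2 was at -0.29 ± 0.13 and -0.37 ± 0.13, of which the latter passed. Myc, which drives cell growth genes, rose with IL-2 at 4 hr by 1.15 ± 0.18 (0.97 without the library that stood apart) and 2.06 ± 0.18. In KI cells it was lower at 4 hr (-0.96 ± 0.20, or -0.77 without that library, and -1.42 ± 0.18) and at 48 hr (-0.56 ± 0.17 and -1.20 ± 0.18). At 24 hr Myc passed the test in the Stat5b line (-1.38 ± 0.18) and not in the Stat5a line (-0.28 ± 0.17). Before culture it was higher in Stat5b KI cells (0.51, past the adjusted p), and the Stat5a value of 0.44 did not pass.

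What the promoters of the members share was counted in RefSeq windows of 250 bases before to 50 after the start (GRCm38.p6), which were at hand for 52 of the 62 members. Hspa8, Cct4, Hspa9, Dnajc2, Dnajc5, Dnajc11, Dnajc30, Hspa13, Dnajc18 and Dnajc12 had none in the table. Motifs were searched on both strands. A 3-block heat shock element (blocks TTC and GAA in turn, 3 in all, with 2 bases between blocks) was found in 4 members (7.69%), where 0.663% of 27018 genes hold it. A 2-block core (TTCNNGAA or GAANNTTC), which every 3-block element also contains, was found in 15 members (28.8%) and in 16.98% of all genes. Hspd1 and Hspe1 count separately in both, although their matches are the same bases. The near-identical promoters of Hspa1a and Hspa1b also count separately for the core. The E-box CACGTG, to which Myc with Max binds, was found in 7 members (13.5%) and in 8.09% of all genes, and none of the 7 is a CCT subunit. The GAS letters TTCNNNGAA were found in 4 members (7.69%: Cct5, Dnajc13, Dnajc27 and Dnajc7) and in 9.55% of all genes. Of the 7 CCT subunits with a window, 3 (Cct2, Cct5 and Cct6a) hold a 2-block core and 0 a 3-block element. Matches of letters in this window are descriptions and were not tested against the changes in RNA.

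The genes whose course was most like that of Cct3 were found by the correlation of log2(group mean RPKM + 1) over the 16 groups, among 10735 genes with a mean of at least 1 RPKM. They were Cct5 (r = 0.993), Cluh (r = 0.989), Umps (r = 0.987), Smyd5 (r = 0.985) and Wdr36 (r = 0.985). Cct8, Cct6a, Hspa9, Hspd1 and Cct7 stood at ranks 16, 17, 18, 19 and 24. All these values share libraries and depth across genes, and many genes that change with time in culture correlate highly over 16 groups. Hspa5, by contrast, correlated with Cct3 at 0.163 (rank 5701).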

How the data were processed

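RNA-seq libraries were prepared with the KAPA mRNA HyperPrep kit from 100 ng RNA (50 bp single-end reads on a NovaSeq). The submitters' processing notes name Bowtie2 2.2.6, TopHat2 2.0.11, SAMtools 0.1.8, bedtools 2.25.0 and edgeR, with the build mm10. The deposited files give, for each RefSeq transcript and library, a raw read count over exons from uniquely mapped reads, and an RPKM value that the authors computed from that count, the transcript length and the mapped reads. Whether the counting used strand is not stated in the sources used here. The files hold no columns of other samples (0).

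The longest transcript stood for each gene. The members and all gene lists were chosen with earlier results of these data known. Levels are RPKM. Counts were tested with edgeR 4.0.16 (R 4.3.3, limma 3.58.1) by the quasi-likelihood test, with TMM normalisation, filterByExpr at a minimum count of 10, 1 coefficient for each of 16 groups, and Benjamini-Hochberg adjustment over 15566 genes. Alternatives were DESeq2 1.42.0, size factors, no filter, all 48 libraries, the transcript with the largest mean count, a replicate block, fits of the compared groups only and leaving out each library. An RPKM pseudocount was not needed, since the files hold counts. The tables were handled with Python 3.11.15 (pandas 2.3.3, numpy 2.4.6) and drawn with matplotlib 3.10.9.

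No 2 libraries of a group agreed within sampling noise: the lowest chi-square per gene over 48 pairs was 4.83. Same-numbered libraries were taken as paired where the correlations of their deviations from the group means were over 0.1 for all 3 numbers. This held only for Stat5a WT cells, at 24 hr against 0 hr (0.206, 0.273 and 0.419) and at 48 hr (0.166, 0.117 and 0.192). Stat5b WT cells at 24 hr gave 0.142, 0.053 and 0.123, and changes with time within KI cells were not checked. Erythroid sums kept the same order of replicate numbers at all 4 times in Stat5b WT cells, and also in Stat5b KI cells. Whether the numbers mark shared sources there was not tested, and the main fit did not pair libraries. On simulated counts for Stat5b KI against WT cells at 48 hr (15096 genes), 84% of genes changed 2-fold and 100% of those changed 4-fold passed the adjusted p, as did 0.0604% of unchanged genes. The changed genes were drawn from well counted ones, and counts were drawn independently with no differences among the other groups. These rates therefore do not cover paired libraries, other cell types or the library that stood apart.

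Genes were named by these rules: the 8 CCT subunits, a list of 13 main HSP and DnaJ genes, the 10 members with the highest mean, up to 5 rises and 5 falls per comparison among called members without overlap, the members next to the limit of 1 RPKM, the HSP90 genes, Hsf1, Hsf2 and Myc, and the 5 genes most like Cct3. Further genes named (among them Dnaja2, Dnaja4, Dnajb2, Dnajb11, Dnajb14, Dnajc3, Dnajc9, Dnajc19, Dnajc25, Hspa14, Hspa4l and Pfdn5) were chosen after their values were seen. Gene starts and promoter sequences are from RefSeq (GRCm38.p6).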

Additional observations from a re-analysis of the deposited data

Results flagged for a closer look

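A total of 33 member results stood out because an effect differed between genotypes or between lines by an interaction term (edgeR's quasi-likelihood test, adjusted over all genes). Differences between genotypes were taken at the adjusted p and 2-fold, and those between lines at the adjusted p alone. At the adjusted p alone, the genotypes differed for 27 members lower and 1 higher in the Stat5a line, and for 33 and 8 in the Stat5b line. Each group held 3 libraries or fewer, so single libraries were not tested as outliers.

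The change with IL-2 from 0 to 48 hr was called as different between KI and WT cells for Hspd1 in the Stat5a line (-1.15 on the log2 scale). The Stat5b line had differences for the CCT subunits Cct6a (-1.52), Tcp1 (-1.41), Cct3 (-1.37), Cct8 (-1.28), Cct7 (-1.18) and Cct5 (-1.02), and for the mitochondrial chaperonin genes Hspd1 (-2.07) and Hspe1 (-1.31). Among HSP70 genes the values were -1.92 for Hspa1b, -1.81 for Hspa1a, -1.56 for Hspa5, -1.36 for Hspa9, -1.27 for Hspa4, -1.11 for Hspa14 and -1.002 for Hspa8. Hspa1a and Hspa1b are members only through the 0 hr libraries, the baseline of this comparison, so their values are a description, and neither call held without replicate 2 of the KI cells at 0 hr. The value of Hspa14 is of a non-coding transcript (-1.23 for its most abundant one). Among DnaJ genes they were -1.18 for Dnajc25, -1.10 for Dnajb11 and -1.07 for Dnajc2.

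The KI difference at 48 hr was lower in the Stat5b than in the Stat5a line, past the adjusted p but under 2-fold, for Cct3 (-0.63), Cct6a (-0.61), Cct8 (-0.58), Tcp1 (-0.54), Cct7 (-0.51), Cct5 (-0.48) and Cct2 (-0.42). The same held for Hspd1 (-0.73), Hspa9 (-0.57), Hspa8 (-0.54), Hspa5 (-0.54), Hspbp1 (-0.50), Hspa4 (-0.37) and Dnajc11 (-0.32). With all 48 libraries, where the added library is in none of the groups compared here, the values of these 14 were -0.34 to -0.74 and 0 passed the adjusted p (0.0936 for Hspd1). Leaving out 1 of the libraries compared gave 9 to 15 members lower past it.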

How the results depend on the processing

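The 391 results on 39 named genes are those past the adjusted p in the main fit, so gains do not appear here. Settings other than leaving out a library kept direction and adjusted p of at most 0.05 in 2569 cases, no longer passed it in 167 and reversed 1. Leaving out a library gave 2573, 189 and 1. The reversals were Cct5 in Stat5a KI cells at 4 hr, -0.23 with all 48 libraries in place of 0.20, and Hspa4 with IL-2 at 4 hr in the Stat5a line, -0.011 without WT replicate 2 of 4 hr in place of 0.20 (up to 0.38 without replicate 3). Counts of called members moved by over 1.5 times only where they were small. For the change with IL-2 between genotypes in the Stat5a line, 1 member became 3 without a filter and 2 with size factors, all 48 libraries, the transcript with the largest count, the replicate block or DESeq2. For Stat5b KI cells at 0 hr, 1 became 0 without a filter, with all 48 libraries, the replicate block, the compared groups only or DESeq2. For Stat5b KI cells at 4 hr, 0 became 1 without a filter, with the largest-count transcript, the replicate block or the compared groups only, and for Stat5a KI cells at 4 hr 0 became 1 with all 48 libraries. The causes were not tested. Leaving out 1 library at a time gave 0 to 2, 0 to 1 and 1 to 3 called in Stat5a KI cells at 0, 4 and 48 hr, 0 to 2 in Stat5b KI cells at 0 hr and at 4 hr, 1 to 4 for the change with IL-2 between genotypes for Stat5a, and 14 to 19 for Stat5b. At 48 hr it gave 16 to 18 in Stat5b KI cells, and 18 to 23 and 19 to 21 with IL-2 in the 2 lines. The block left 9 and 19 called with IL-2 at 24 and 48 hr in the Stat5a line, where the numbers passed the limit for pairing, as without it. By the adjusted p alone, the line difference at 48 hr held 14 members lower, 0 with all 48 libraries (with values nearly as before), 21 with the compared groups only, 13 with DESeq2 and 9 to 15 without 1 library. Members higher and lower in Stat5a KI cells at 4 hr were 6 and 7, 3 and 9 with size factors, 0 and 0 with the compared groups only, 1 and 12 with all 48 libraries and 5 and 9 with DESeq2. In Stat5a KI cells at 24 hr 15 were lower, 4 with all 48 libraries, 22 with DESeq2, 23 with the compared groups only and 10 to 14 without 1 library. Members higher in KI cells at 48 hr, 3 in the Stat5a and 8 in the Stat5b line, were 1 and 5 with all 48 libraries, 1 and 6 without a filter, 6 and 9 with the compared groups only, and at 24 hr in the Stat5b line 3 became 7 with size factors or DESeq2, 6 with the compared groups only and 1 with all 48 libraries. In Stat5b KI cells at 4 hr 5 and 10 became 2 and 0 with all 48 libraries and 10 and 17 with the compared groups only. Without a filter, the split of higher and lower calls with IL-2 was 16 and 6 in the Stat5a line at 48 hr, 4 and 5 in the Stat5b line at 24 hr and 15 and 5 at 48 hr. TMM left the median of all genes at -0.123 and -0.133 with IL-2 at 48 hr and at 0.104 in Stat5b KI cells, and changes may be read against these. An RPKM pseudocount was not run, as the files hold counts. Depth limits Hspa1a and Hspa1b after 4 hr, where a library held few reads.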
